A study of Homo sapiens with 9 samples.

Results

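The genes described here are 10 matrix metalloproteinases (MMPs) and tissue inhibitors of metalloproteinases (TIMPs), out of 36385 genes in the deposited expression table. They are the collagenases MMP1 and MMP13, the stromelysins MMP3 and MMP10, the gelatinase MMP2, the membrane-type enzymes MMP14 and MMP16, and the inhibitors TIMP1, TIMP2 and TIMP3. Each was found by its gene symbol, and each symbol matched a single row.

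The cells were MG-63, an osteosarcoma line widely used as an osteoblast model, grown for 7 days on boronized Ti6Al4V/HA (called HA coating here), on Ti6Al4V+TiB2 (called TiB2) or on bare Ti6Al4V (bare alloy), a titanium implant alloy. By its label the first of these surfaces differs from bare alloy in boronizing as well as in HA. Their parts cannot be told apart in that comparison. Every group, bare alloy included, was kept in osteogenic induction medium with dexamethasone at 100 nM, ascorbic acid at 50 µg/mL and beta-glycerophosphate at 10 mM. Each surface had 3 RNA-seq libraries with 58464306 to 72542556 counts, and the labels mark the TiB2 libraries as not part of the authors' final analysis. Whether the libraries of a surface came from separate cultures is not in the labels, so p-values here reflect library-to-library spread that may be technical.

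MMPs are zinc proteases that cut extracellular matrix and are made as inactive precursors. Collagenases open the triple helix of fibrillar collagen, gelatinases digest the unwound chains, and stromelysins cut other matrix proteins and activate precursor collagenases. TIMPs bind the active enzymes, and TIMP2 has a further role: together with MMP14 on the cell surface it holds the MMP2 precursor in place for activation. In bone, osteoblast-lineage cells use these enzymes to remodel collagen, and glucocorticoids such as dexamethasone are known to lower the transcription of several MMP genes.

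Markers of the cells were compared with the label before the results. COL1A1, COL1A2, VIM and SPARC stood at 46.4 FPKM or more in every library, while RUNX2 did not exceed 0.494 FPKM. ALPL, alkaline phosphatase, had 2.45 to 5.26 FPKM on the HA coating, 3.58 to 5.21 on TiB2 and 0.354 to 0.708 on bare alloy. The 6 markers together summed to 960 to 1490 FPKM on the HA coating, 1390 to 1480 on TiB2 and 2430 to 2810 on bare alloy. FPKM is the authors' fragment count scaled by gene length and library depth. The 4 epithelial markers (EPCAM, CDH1, KRT5, KRT14) together reached only 0.243 to 0.497 FPKM. T cell markers (CD3D, CD3E, LCK, CD2) were at 0 in all 3 HA libraries and in bare alloy replicate 1, and summed to at most 2.17 FPKM in the other 5 libraries. The 5 neutrophil markers with a row summed to 1.13 to 5.96 FPKM on the HA coating, 0.333 to 0.908 on TiB2 and 0.463 to 1.01 on bare alloy. Most of that sum on the HA coating was S100A9, and CSF3R and FCGR3B were at 0 there. S100A8 had 0, 14 and 67 counts in HA replicates 1, 2 and 3, 5, 5 and 0 on TiB2, and 0 in every bare alloy library. ELANE had 0, 9 and 0 counts on the HA coating, 0, 8 and 8 on TiB2, and 24, 69 and 47 on bare alloy. Macrophage and osteoclast markers summed to 3.76 to 8.13, 6.68 to 8.59 and 5.69 to 7.92 FPKM on the 3 surfaces in the same order, nearly all of it CD14. Endothelial markers summed to 1.42 to 1.49, 1.24 to 1.35 and 3.99 to 5.07 FPKM, with the bare alloy excess in CDH5. Ribosomal RNA rows took 0.784% to 1.34% of the counts on the HA coating, 0.711% to 0.82% on TiB2, and 1.23%, 0.587% and 0.473% in bare alloy replicates 1, 2 and 3. The part of these differences in the results was not tested.

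On the HA coating the collagenase gene MMP1 was 32.7-fold higher than on bare alloy, while the inhibitor gene TIMP3 was 9.06-fold lower, the gelatinase gene MMP2 2.94-fold lower and MMP16 2.78-fold lower. MMP14 and TIMP1, at log2 fold changes of -0.04 and 0.24, did not pass the test. Of the 10 genes, 9 passed edgeR's filter on low counts in this comparison: 1 rose, 3 fell and 5 did not pass an adjusted p of 0.05. Over all 20117 genes tested, 9.89% were called, 5.02% higher and 4.88% lower. The median log2 fold change was -0.04 over the 9 and 0.02 over all genes tested. On TiB2 the same 4 genes moved in the same directions against the same bare alloy libraries, with MMP1 4.76-fold higher, TIMP3 8.09-fold, MMP16 3.17-fold and MMP2 2.19-fold lower, and TIMP2 fell as well. There 8 genes were tested: 1 rose, 4 fell and 3 did not pass, against 25.1% called over 20152 genes, 12.9% higher and 12.2% lower. The median log2 fold change was -0.25 over the 8 and 0.00 over all genes tested. The 2 comparisons share the bare alloy libraries, so they are not separate evidence. In bulk RNA, fewer cells expressing a gene and less RNA per cell cannot be told apart.

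**Figure D1:**
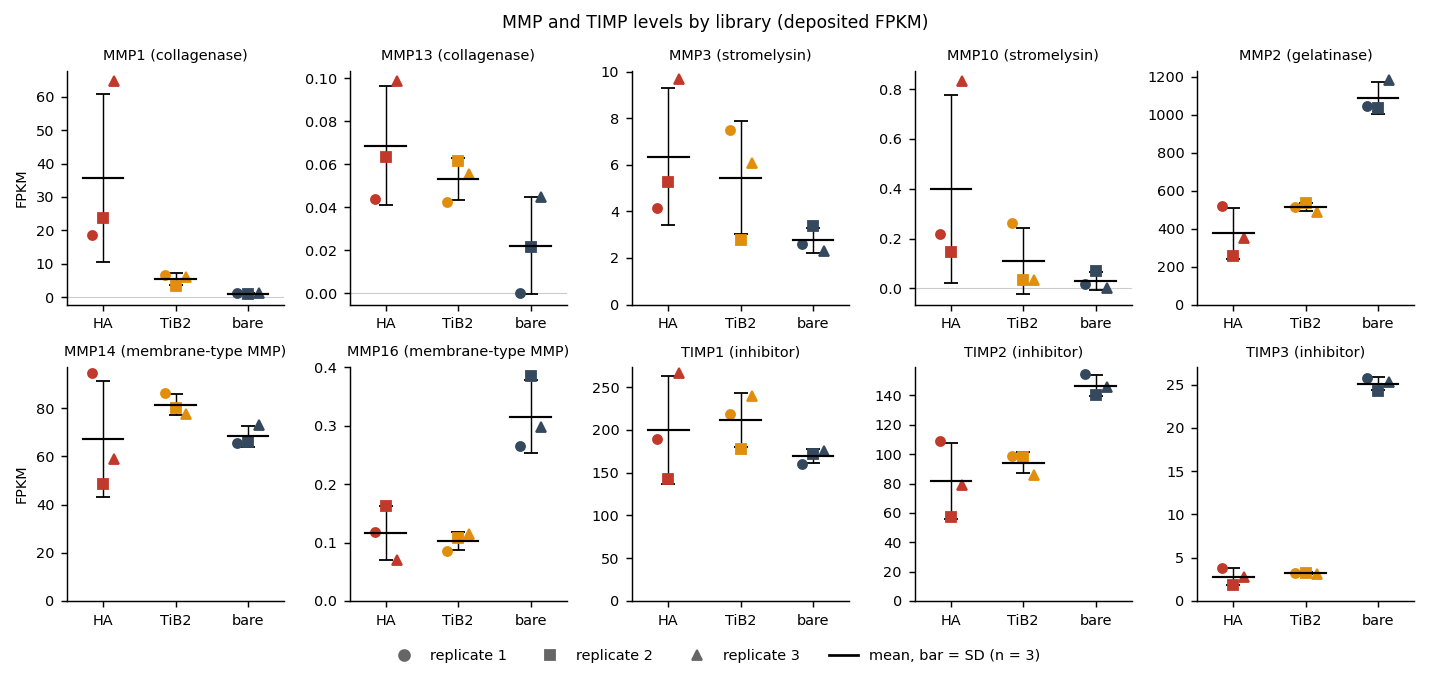
Deposited FPKM (y axis, linear, a separate scale for each gene) of the 10 genes in each library on the HA coating, TiB2 and bare alloy (x axis). Points are libraries with the replicate shown by shape, horizontal lines are means and bars are SD (n = 3); TIMP3 lies at 1.79 to 3.8 FPKM on the HA coating, at 3.13 to 3.29 on TiB2 and at 24.3 to 25.7 on bare alloy.

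MMP1 encodes interstitial collagenase, the enzyme best known for cutting type I collagen (ENSG00000196611, GRCh38 chromosome 11, 102789401 to 102798160, minus strand). Its FPKM was 18.7, 23.8 and 64.6 in HA replicates 1, 2 and 3, then 6.77, 3.49 and 6.11 in the TiB2 libraries, and 1.2, 0.978 and 1.11 in the bare alloy libraries. The 3 surfaces did not overlap, and HA replicate 3 lay far above the other HA libraries. Of all genes tested, 17.9% lay wholly above bare alloy on the HA coating and 22.9% on TiB2. Behind these values were 3273 to 13559 counts on the HA coating, 633 to 1227 on TiB2 and 179 to 208 on bare alloy. By mean level MMP1 ranked 1019th on the HA coating, 5982nd on TiB2 and 11589th on bare alloy among all genes above 0. Against bare alloy the log2 fold change was 5.03 ± 0.53 (SE) on the HA coating (edgeR adjusted p = 0.00117) and 2.25 ± 0.25 on TiB2 (edgeR adjusted p = 0.000256). Without HA replicate 3 the HA value was 4.18, and its call held in all 6 fits that omit a library.

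The HA coating also had more MMP1 RNA than TiB2 (log2 fold change 2.78 ± 0.49, 6.86-fold, edgeR adjusted p = 0.0415), a comparison in which 0.632% of 20086 genes were called, 0.179% higher and 0.453% lower. MMP1 was the only gene of the 10 called there, and all 10 were tested. All 3 HA libraries lay above all 3 TiB2 libraries, as did 8.58% of all genes tested; 9.87% lay wholly below, none of the 10 among them. The size rested in part on HA replicate 3, without which the log2 fold change was 1.91. The call was lost without HA replicate 2 or any 1 of the TiB2 libraries (log2 fold changes 2.54 to 3.03, edgeR adjusted p = 0.155 to 0.163), and by limma on FPKM and edgeR with no filter on low counts.

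MMP13, collagenase 3, which is typical of hypertrophic cartilage and bone (ENSG00000137745, chromosome 11, 102942995 to 102955732), was near the limit of detection. It had 8, 12 and 22 counts in the HA libraries, 8, 12 and 11 on TiB2, and 0, 4 and 8 on bare alloy. Over all genes 55.5% of counts from 1 to 20 were even, so a count this low may stand for fewer independent fragments. The gene did not pass the filter against bare alloy. With no filter its log2 fold changes were 1.70 ± 1.17 for the HA coating (edgeR adjusted p = 0.443) and 1.28 ± 1.17 for TiB2 (edgeR adjusted p = 0.523), and no difference was detectable at this depth.

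MMP3, stromelysin 1, which can activate precursor collagenase (ENSG00000149968, chromosome 11, 102835801 to 102843609), had 4.16, 5.24 and 9.67 FPKM on the HA coating, 7.49, 2.79 and 6.08 on TiB2, and 2.59, 3.35 and 2.32 on bare alloy. Every HA library exceeded every bare alloy library, as in 17.9% of all genes tested, while TiB2 replicate 2 fell among the bare alloy values. Neither comparison with bare alloy passed: the log2 fold change was 1.22 ± 0.35 for the HA coating (edgeR adjusted p = 0.0616) and 0.94 ± 0.32 for TiB2 (edgeR adjusted p = 0.0612). Without HA replicate 3 the HA value was 0.69. The HA difference was called without HA replicate 1 (1.48, edgeR adjusted p = 0.0231), by DESeq2 (adjusted p = 0.00579) and with an offset for GC content and length (edgeR adjusted p = 0.044). Without TiB2 replicate 2 the TiB2 value was 1.26 (edgeR adjusted p = 0.00362). The TiB2 difference was also called by DESeq2 (adjusted p = 0.00579).

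MMP10, stromelysin 2, is encoded next to MMP1 (ENSG00000166670, chromosome 11, 102770502 to 102780628). It was sparse, with 25, 17 and 113 counts on the HA coating, 31, 4 and 4 on TiB2, and 2, 8 and 0 on bare alloy. HA replicate 3 was again the highest library, at 0.831 FPKM against 0.217 and 0.146 in HA replicates 1 and 2. Every HA library lay above every bare alloy library, as in 17.9% of all genes tested. The gene passed the filter on low counts here only through the HA libraries, so a call would partly restate the filter. The difference missed the threshold (log2 fold change 3.79 ± 1.09, edgeR adjusted p = 0.0611), and the log2 fold change was 2.57 without HA replicate 3. DESeq2, under the same filter, called it (adjusted p = 0.0036). With no filter edgeR did not (3.81 ± 1.14, edgeR adjusted p = 0.128). For TiB2 against bare alloy the gene was not tested, and with no filter its log2 fold change was 1.88 ± 1.38 (edgeR adjusted p = 0.434). The antisense transcript WTAPP1, which overlaps MMP10 and MMP1, had 0 to 9 counts. No source used here gives the strand setting of the counting, so reads of overlapping genes cannot be told apart.

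MMP1, MMP3, MMP10 and MMP13 lie within 185 kb of each other on chromosome 11, all on the minus strand. In the same neighbourhood MMP12, macrophage elastase, had 21, 16 and 20 counts on the HA coating, 15, 0 and 16 on TiB2, and 8, 0 and 4 on bare alloy. Levels along this stretch were uneven: in every library MMP1 and MMP3 were the most abundant of the 5, and MMP10, MMP12 and MMP13 stayed below 1 FPKM. Within a library MMP1 was 4.49 to 6.68 times as abundant as MMP3 on the HA coating, 0.903 to 1.25 times on TiB2 and 0.292 to 0.481 times on bare alloy. MMP3 thus led on bare alloy and MMP1 on the HA coating, while on TiB2 the pair was nearly level.

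**Figure D2:**
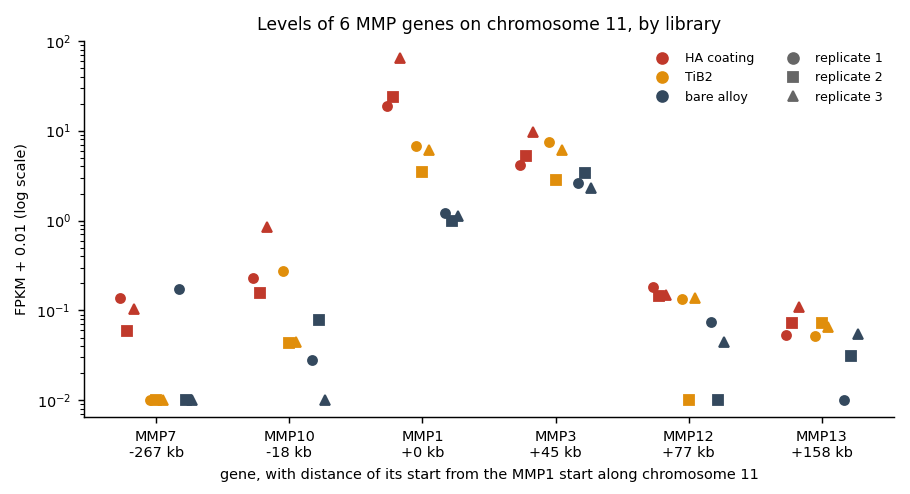
FPKM + 0.01 on a log scale (y axis) for 6 MMP genes on chromosome 11, ordered by position (x axis, with the distance of each gene's start from the MMP1 start in kb). Each point is a library, coloured by surface and shaped by replicate; MMP1 separates the 3 surfaces, from 18.7 to 64.6 FPKM on the HA coating and 3.49 to 6.77 on TiB2 to 0.978 to 1.2 on bare alloy.

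RefSeq promoter windows (GRCh38.p14) were matched for 4 of the 10 genes, MMP10, MMP14, TIMP1 and TIMP3. The 250 bases before each start were searched on both strands for 3 short motifs that do not overlap in these windows. The first was TGANTCA, the AP-1 element that inducible MMP promoters are known for, present in 6.57% of 35116 promoters. An ETS-family element, AGGAAG, was present in 28.7% of them. The core promoter element TATAAA was present in 10.7%. MMP10 held TGAATCA with its first base 67 bases before the start and TATAAA 31 bases before it. TIMP1 held AGGAAG 87 bases before its start. The windows of TIMP3 and MMP14 held none of the 3. The matches are a description of the letters and show no binding. The last 120 bases before the start are shown for MMP10, as the neighbour of MMP1, and for TIMP3, as the gene that fell the most; capitals mark the matched letters. MMP10 is at chr11:102780629-102780748, minus strand, and TIMP3 at chr22:32801585-32801704, plus strand. Their G and C content is 36.7% and 72.5%.
MMP10: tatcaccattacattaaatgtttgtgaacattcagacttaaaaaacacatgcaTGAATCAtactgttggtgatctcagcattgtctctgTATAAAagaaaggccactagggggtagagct
TIMP3: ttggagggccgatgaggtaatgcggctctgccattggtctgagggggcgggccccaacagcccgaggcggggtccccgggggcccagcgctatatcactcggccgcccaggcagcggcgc

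MMP2, gelatinase A, which digests denatured collagen and basement membrane (ENSG00000087245, chromosome 16, 55389700 to 55506239), was the most abundant of the 10 genes in every library. It had 517, 255 and 351 FPKM in HA replicates 1, 2 and 3, then 515, 536 and 490 on TiB2, and 1044, 1036 and 1184 on bare alloy. Every coated library was far below every bare alloy library, while HA coating and TiB2 overlapped. Of all genes tested, 15.4% lay wholly below bare alloy on the HA coating and 17.2% on TiB2. On bare alloy MMP2 was the 26th most abundant of all genes, on TiB2 the 46th and on the HA coating the 70th. It fell by 1.56 ± 0.28 on the log2 scale on the HA coating (edgeR adjusted p = 0.0105) and by 1.13 ± 0.10 on TiB2 (edgeR adjusted p = 6.32e-05). HA coating and TiB2 did not differ past the threshold (-0.43 ± 0.25, edgeR adjusted p = 0.503). The HA call was lost without bare alloy replicate 3 (edgeR adjusted p = 0.0508), by limma on FPKM (adjusted p = 0.0682 and 0.0833), with log2 fold changes of -1.60 to -1.53. It was also lost against bare alloy replicate 1 alone (-1.58, edgeR adjusted p = 0.11), a fit in which the spread comes from the HA libraries only.

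MMP14, the membrane-type enzyme that activates the MMP2 precursor (ENSG00000157227, chromosome 14, 22836560 to 22849041), passed by edgeR in neither comparison with bare alloy. Its FPKM was 94.5, 48.7 and 59 on the HA coating, 86.3, 80.2 and 77.8 on TiB2, and 65.4, 66.2 and 73.2 on bare alloy. The HA libraries lay on both sides of bare alloy, while all 3 TiB2 libraries lay above it, as did 22.9% of all genes tested. The log2 fold change was -0.04 ± 0.24 for the HA coating (edgeR adjusted p = 0.937) and 0.20 ± 0.08 for TiB2 (edgeR adjusted p = 0.0795). Of 16 alternatives, only DESeq2 called the TiB2 difference (adjusted p = 0.0379).

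MMP16, a second membrane-type enzyme (ENSG00000156103, chromosome 8, 88032011 to 88327483), was far less abundant. It had 93, 126 and 65 counts on the HA coating, 70, 86 and 92 on TiB2, and 203, 309 and 226 on bare alloy, or 0.0696 to 0.162, 0.0862 to 0.115 and 0.265 to 0.385 FPKM. All coated libraries were below all bare alloy libraries, as in 15.4% of all genes tested for the HA coating and 17.2% for TiB2. It fell by 1.47 ± 0.31 on the log2 scale on the HA coating (edgeR adjusted p = 0.0201) and by 1.66 ± 0.22 on TiB2 (edgeR adjusted p = 0.000592). The HA call held in 10 of 16 alternatives. It was lost without any 1 of the bare alloy libraries (edgeR adjusted p = 0.0527 to 0.099), by limma on FPKM and against bare alloy replicate 1 alone, where the log2 fold change was -1.30. Limma gave a difference of -0.24 on log2(FPKM + 1) and -0.95 on log2(FPKM + 0.1), scales that shrink differences of genes this low. On TiB2 the call was lost only by limma on log2(FPKM + 0.1) (adjusted p = 0.0536).

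TIMP3, the inhibitor that binds to the matrix and also blocks ADAM-family proteases (ENSG00000100234, chromosome 22, 32801705 to 32863041), showed the largest fall of the 10 genes on both coated surfaces. It had 3.8, 1.79 and 2.82 FPKM on the HA coating, 3.24, 3.29 and 3.13 on TiB2, and 25.7, 24.3 and 25.3 on bare alloy. The 6 coated libraries were all below 4 FPKM and the 3 bare alloy libraries all above 24, a gap much wider than the spread on any surface. Some separation of this direction was seen in 15.4% of all genes tested for the HA coating and 17.2% for TiB2. By mean level it ranked 8491st on the HA coating, 8086th on TiB2 and 1348th on bare alloy. The log2 fold change was -3.18 ± 0.28 for the HA coating (edgeR adjusted p = 0.000517) and -3.02 ± 0.09 for TiB2 (edgeR adjusted p = 1.44e-07). Both calls held under all 16 alternatives, and the HA coating did not differ from TiB2 past the threshold (-0.17 ± 0.26, edgeR adjusted p = 0.817). TIMP3 lies within SYN3 on the opposite strand, whose own row held 68 to 239 counts beside 528 to 7445 for TIMP3.

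TIMP2, the inhibitor that also docks the MMP2 precursor on MMP14 (ENSG00000035862, chromosome 17, 78852977 to 78922401), had 109, 56.9 and 79 FPKM on the HA coating, 98.5, 98.2 and 85.9 on TiB2, and 154, 140 and 146 on bare alloy. Every coated library was below every bare alloy library, as in 15.4% of all genes for the HA coating and 17.2% for TiB2. On TiB2 it fell by 0.69 ± 0.10 on the log2 scale (edgeR adjusted p = 0.00113), a call lost only with all 9 libraries in 1 fit (edgeR adjusted p = 0.0682). The HA value, -0.87 ± 0.25, missed the threshold (edgeR adjusted p = 0.0634). It passed under 6 of 16 alternatives, among them DESeq2 (adjusted p = 0.00603) and the fit without HA replicate 1 (edgeR adjusted p = 0.0187).

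TIMP1, a broadly secreted inhibitor (ENSG00000102265, chromosome X, 47582408 to 47586789), was the most abundant TIMP in every library. Its FPKM was 190, 142 and 267 on the HA coating, 219, 177 and 239 on TiB2, and 161, 172 and 176 on bare alloy. The HA values spread over both sides of bare alloy, and the TiB2 libraries lay above it, TiB2 replicate 2 only just. On TiB2 22.9% of all genes tested lay wholly above bare alloy. The log2 fold change was 0.24 ± 0.26 for the HA coating (edgeR adjusted p = 0.597) and 0.27 ± 0.11 for TiB2 (edgeR adjusted p = 0.0922). Without TiB2 replicate 2 the TiB2 value was 0.39 (edgeR adjusted p = 0.00716). The TiB2 difference was also called by DESeq2 (adjusted p = 0.0353).

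**Figure D3:**
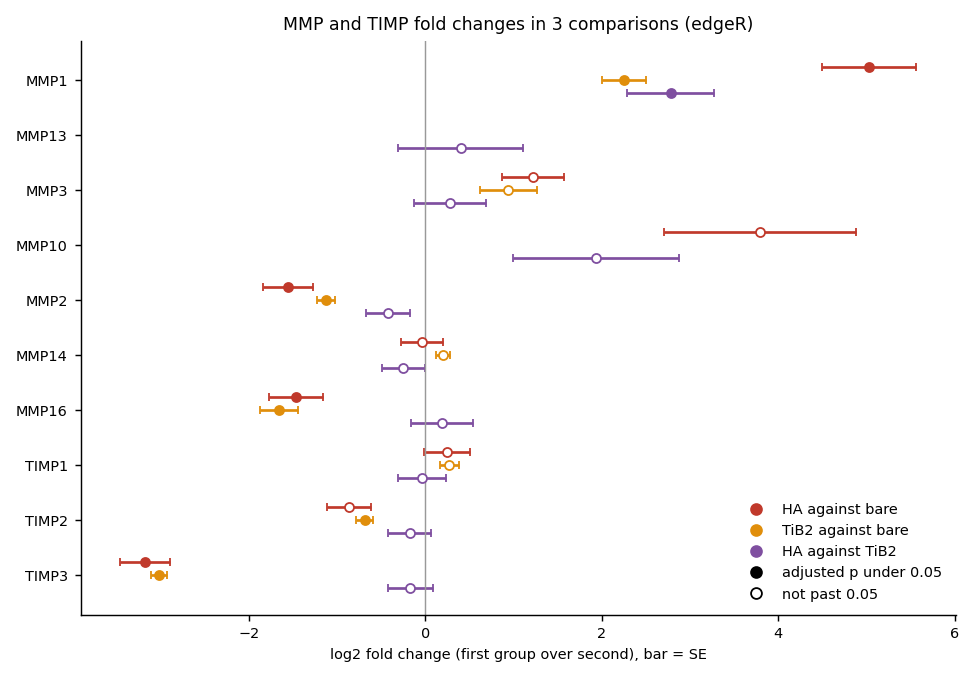
Log2 fold change from edgeR (x axis, first group over second) with its SE (bar) for the 10 genes (y axis) in HA coating against bare alloy, TiB2 against bare alloy and HA coating against TiB2. Filled points passed an adjusted p of 0.05, and a missing point is a gene that did not pass the filter on low counts; MMP1 is the only gene filled in all 3 comparisons, at 5.03, 2.25 and 2.78.

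The balance within the family was read from FPKM, which is per length, within each library, as a description with no test. Summed over the 7 MMPs, the level was 484 ± 151 FPKM on the HA coating, 606 ± 23.1 on TiB2 and 1161 ± 87.1 on bare alloy (SD, n = 3 each). The 3 TIMPs summed to 284 ± 75.7, 309 ± 26.6 and 341 ± 5.1 FPKM. The ratio of these sums was 2.1, 1.66 and 1.39 in the HA libraries, 1.92, 2.23 and 1.76 on TiB2, and 3.27, 3.29 and 3.64 on bare alloy. The ratio over all 10 genes was thus lower in every coated library, with HA coating and TiB2 overlapping. Without TIMP1, the most abundant TIMP, that separation was lost for TiB2, where replicate 3 stood at 6.51, against 6.18 in bare alloy replicate 1.

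That sum is mostly MMP2, which made up 72.3% to 81.5% of it on the HA coating, 83.6% to 86.1% on TiB2 and 93.6% to 93.9% on bare alloy. Leaving MMP2 out turned the order round, with ratios of 0.385 to 0.389 on the HA coating, 0.274 to 0.315 on TiB2 and 0.204 to 0.222 on bare alloy. What remained of the MMP sum was mostly MMP14 by group mean. Its mean was 67.4 of 110 FPKM on the HA coating, 81.4 of 92.6 on TiB2 and 68.3 of 72.5 on bare alloy. The mean of MMP1 was 35.7, 5.46 and 1.1 FPKM in the same order. In HA replicate 3 MMP1 exceeded MMP14, at 64.6 against 59 FPKM. MMP1 made up 2.94%, 7.15% and 13.3% of the MMP sum in HA replicates 1, 2 and 3, 0.561% to 1.1% on TiB2 and 0.0883% to 0.108% on bare alloy. Among the inhibitors TIMP3 held 0.808% to 1.26% of the TIMP sum on the HA coating, 0.954% to 1.18% on TiB2 and 7.22% to 7.55% on bare alloy.

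The 3 genes of the MMP2 activation complex were also compared within each library. MMP2 was 5.24 to 5.95 times as abundant as MMP14 on the HA coating, 5.97 to 6.68 times on TiB2 and 15.7 to 16.2 times on bare alloy. HA replicate 2 had the lowest MMP2, MMP14 and TIMP2 levels of the HA libraries, and its ratio of 5.24 was close to the 5.47 of HA replicate 1. MMP2 over TIMP2 was 4.44 to 4.75, 5.23 to 5.7 and 6.77 to 8.12 on the 3 surfaces in the same order. MMP14 over TIMP2 was 0.747 to 0.868 on the HA coating, 0.817 to 0.905 on TiB2 and 0.424 to 0.502 on bare alloy.

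**Figure D4:**
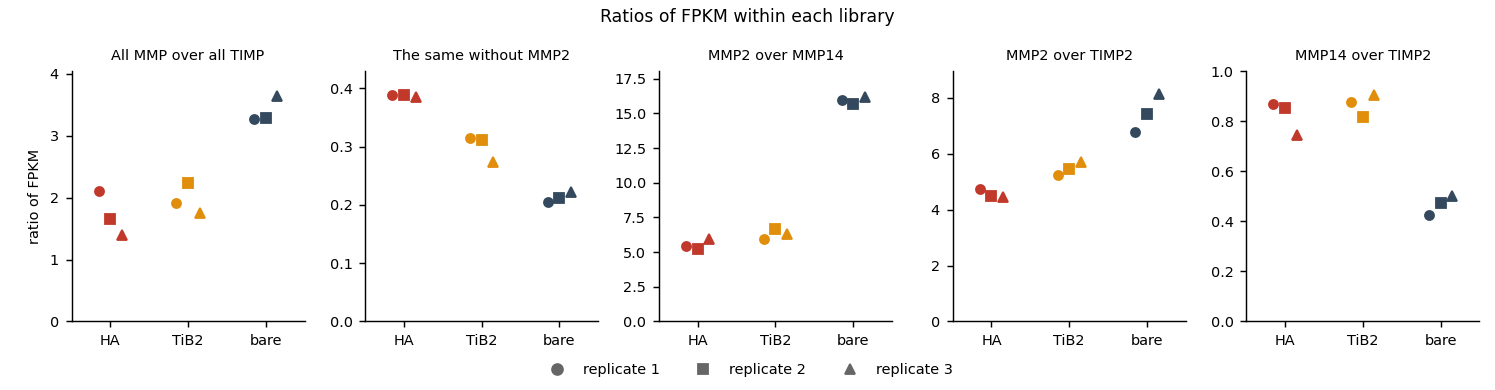
Ratio of FPKM within each library (y axes, linear, from 0) on the HA coating, TiB2 and bare alloy (x axes) for the summed MMPs over the summed TIMPs, the same without MMP2, and 3 pairs of genes. Each point is a library; MMP2 over MMP14 is 5.24 to 5.95 on the HA coating and 15.7 to 16.2 on bare alloy.

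Other genes of the protease system were counted from lists, against shares over all genes tested of 5.02% higher and 4.88% lower on the HA coating, and 12.9% and 12.2% on TiB2. Of 17 further MMP and TIMP family genes 12 were tested for the HA coating against bare alloy and none passed by edgeR (median log2 fold change -0.25), and for TiB2 1 of 10 rose, MMP17. Among activators, receptors and other inhibitors 2 of 17 rose and 3 fell on the HA coating, and 4 of 15 rose and 6 fell on TiB2 (medians -0.04 and -0.15). PLAT, the tissue plasminogen activator, was 4.82-fold higher on the HA coating (14.6 ± 2.54 against 2.99 ± 0.411 FPKM; edgeR adjusted p = 0.000336). SPOCK1, a proteoglycan of the testican family, was 4.33-fold lower (43.2 ± 10 against 184 ± 11.7 FPKM; edgeR adjusted p = 0.000839). LRP1, a receptor that takes up proteases bound to their inhibitors, was 4.03-fold lower (31.4 ± 26.3 against 123 ± 17.6 FPKM; edgeR adjusted p = 0.0397), and of the 6 fits that each omit a library only that without HA replicate 1 kept the call. That fit gave a log2 fold change of -2.91, against -2.01 with all libraries.

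ADAM and ADAMTS proteases, which shed membrane proteins or cut proteoglycans and procollagen, had 5 of 23 lower and none higher on the HA coating by edgeR, and 7 of 23 higher and 5 lower on TiB2 (medians 0.01 and 0.06). Over all genes 4.88% were lower on the HA coating, and 12.9% higher and 12.2% lower on TiB2. ADAMTS14, a procollagen N-proteinase, was 3.05-fold lower on the HA coating, ADAMTS15 2.69-fold and ADAM33 2.63-fold. Cathepsins and cystatins had 1 of 14 higher and 3 lower on the HA coating, and 2 of 15 higher and 7 lower on TiB2 (medians -0.54 and -0.30). The counts of higher genes in that list were near the shares over all genes, 5.02% on the HA coating and 12.9% on TiB2. CTSS, a lysosomal protease of the cathepsin family, was 4.01-fold higher, and CTSF and CTSB were 2.07-fold and 1.93-fold lower. The calls of ADAMTS14 and CTSS held in all 6 fits that omit a library. ADAMTS15 lost its call without HA replicate 2 or bare alloy replicate 3, and ADAM33 without bare alloy replicate 2. CTSB kept its call only without HA replicate 1 or 3, and CTSF only without HA replicate 3.

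The transcription factors of the AP-1, ETS and C/EBP families, which act on MMP promoters, went in both directions. On the HA coating 5 of 23 rose and 2 fell (median 0.03), and on TiB2 9 of 23 rose and 5 fell (median 0.46). The shares over all genes were 5.02% higher and 4.88% lower on the HA coating, and 12.9% and 12.2% on TiB2. JUN, an AP-1 subunit, was 2.57-fold lower on the HA coating (19.2 ± 5.72 against 48.9 ± 9.39 FPKM; edgeR adjusted p = 0.00723). BATF3, a partner of JUN proteins, was 6.02-fold higher, and kept its call only without HA replicate 1 or 3; its log2 fold change was 1.82 without HA replicate 3 and 2.59 with all libraries. Between HA coating and TiB2 2 of 23 fell and 0 rose, where 0.453% of all genes tested were lower and 0.179% higher. The 2 were named after their values were seen: CEBPB was 6.61-fold lower on the HA coating (3.7 ± 1.59 against 25.4 ± 5.01 FPKM, edgeR adjusted p = 0.0072) and CEBPD 3.11-fold lower.

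Of 9 tested collagens that these enzymes cut, 5 fell on the HA coating and 4 were not called (median -1.13), and on TiB2 6 fell, 1 rose, COL4A2, and 2 were not called (median -0.72). Over all genes 4.88% were lower on the HA coating and 12.2% on TiB2, and 12.9% were higher on TiB2. The 1 collagen that rose on TiB2 was near that share. COL1A2, the second chain of type I collagen, was 4.41-fold lower on the HA coating (71.8 ± 30.8 against 312 ± 14.3 FPKM; edgeR adjusted p = 0.00432). COL5A2 was 2.53-fold lower, and both calls held in all 6 fits that omit a library. COL1A1 was 2.68-fold lower (edgeR adjusted p = 0.0446), a call kept only without HA replicate 1.

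The genes whose level followed MMP1 most closely were taken over the 9 libraries by Pearson's r of log2(FPKM + 1), among 11374 genes with a symbol and a mean of at least 1 FPKM. They were GK (r = 0.994), GFUS (0.993), CXCL10 (0.989), the pseudogene SNRPA1P1 (0.985) and DCTPP1 (0.983). CXCL10, a chemokine, had 19.1, 44.8 and 129 FPKM in HA replicates 1, 2 and 3, then 12, 3.77 and 11.2 on TiB2, and 1.48, 1.19 and 1.02 on bare alloy. As with MMP1, HA replicate 3 was its highest library and TiB2 replicate 2 the lowest on TiB2. GK, glycerol kinase, had 3.26 to 5.32 FPKM on the HA coating, 1.55 to 2.13 on TiB2 and 0.768 to 0.964 on bare alloy. With 3 surfaces that differ in level, such values mostly restate the order of the surfaces and are given as a description.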

How the data were processed

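Per the file headers, the authors' deposited table holds raw counts and FPKM for each gene in each library. The submitters' processing notes name featureCounts 2.0.1, StringTie 2.1.4, HISAT2 2.2.1, cutadapt 2.10, limma and the build GRCh38, without giving roles. No source used here gives the strand setting or the handling of multi-mapping reads. Within a gene, deposited FPKM followed deposited counts apart from 1 factor per library (median SD 0.000647 on the log2 scale, 11117 well-counted genes).

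Groups came from the sample titles. Counts were filtered with filterByExpr, scaled by TMM and compared in each pair of groups with edgeR's quasi-likelihood test (edgeR 4.0.16 in R 4.3.3). The test is two-sided, p-values were adjusted by Benjamini-Hochberg over all genes tested, and the threshold was 0.05. The SE is the size of the log2 fold change over the square root of F. Levels are deposited FPKM. limma 3.58.1 and DESeq2 1.42.0 gave alternatives. The edgeR fit was tested on simulated counts, and the other steps were not. Where no read was counted, the upper limit is 3 counts (0.0414 to 0.0513 CPM), for counting error only. The genes and lists were chosen with earlier results of these data known. All 10 genes were named whatever their result, and up to 3 called genes per list (groups not overlapping, mean of at least 1 FPKM). A gene that this rule names is not reported here.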

Additional observations from a re-analysis of the deposited data

How the results depend on the processing

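Of 422 log2 fold changes recomputed for the 10 genes, 375 kept their direction and their side of the threshold. TIMP3 and MMP1 against bare alloy, and MMP2 on TiB2, kept theirs under all 16 alternatives. Counts of genes called moved more than the values. For the HA coating against bare alloy (1990 genes) they were 3562 with DESeq2, 554 and 686 with limma on log2(FPKM + 1) and log2(FPKM + 0.1), 1093 with no filter, 3518 with all 9 libraries in 1 fit, 3578 with an offset for GC content and length, and 286 against bare alloy replicate 1 alone. The last 2 alternatives were chosen after seeing the data, and in the last the lone bare alloy library is assumed to vary like the coated libraries, which alone supply the spread. For TiB2 against bare alloy (5059) they were 2873 and 2901 with limma, 2132 with all 9 libraries and 2438 against bare alloy replicate 1 alone. For the HA coating against TiB2 (127) they were 501 with DESeq2, 27 and 22 with limma, 35 with no filter, 67 with all 9 libraries and 191 with the offset.

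Replicate numbers are shared between surfaces, but same-numbered libraries did not deviate together (correlations of -0.07 to 0.04). No pairing by number was seen, which with 3 libraries per surface does not exclude one. With a replicate block the 3 comparisons called 1357, 3625 and 195 genes, and not every library correlated best with its own number. Of the 10 genes, the number called higher on the HA coating was 3 with DESeq2 and 2 with the offset, and the number called lower was 1 with either limma setting and 1 against bare alloy replicate 1 alone. On TiB2 4 were called higher with DESeq2, namely MMP1, MMP3, MMP14 and TIMP1. Against TiB2 0 were called on the HA coating with either limma setting or no filter. The cause was not tested.

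With 1 library left out, the genes called for the HA coating against bare alloy were 598 to 4185, and 1 to 2 of the 10 were called higher and 1 to 4 lower. For TiB2 against bare alloy 1 to 3 were called higher. For the HA coating against TiB2 49 to 1224 genes were called, and 0 to 1 of the 10. Signs turned only in genes not called. For the HA coating against bare alloy MMP14 ran from -0.32 to 0.17 and TIMP1 from -0.10 to 0.46, and the offset gave 0.03 and -0.01. Against TiB2 TIMP1 ran from -0.39 to 0.18, MMP16 from -0.08 to 0.40, TIMP2 from -0.41 to 0.05, TIMP3 from -0.42 to 0.09, MMP13 from -0.05 to 0.66 and MMP3 from -0.26 to 0.57.

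The ratio of summed MMP to summed TIMP FPKM was 0.388, 0.3 and 0.212 on the HA coating, TiB2 and bare alloy without MMP2, and 5.74, 6.23 and 6.77 without TIMP1. By Spearman's correlation 3 of the 5 genes most like MMP1 were among the 5 highest, ties included. Depth limits MMP13 and MMP10.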

Other observations

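MMP7, matrilysin, which lies on the same stretch of chromosome 11, had 20, 8 and 17 counts in the HA libraries, 0 in all 3 TiB2 libraries, and 24, 0 and 0 in bare alloy replicates 1, 2 and 3. The libraries with MMP7 counts were those in which the T cell markers CD3D, CD3E and LCK were at 0.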
